A study of Homo sapiens with 42 samples.

Results

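ZIC1, ZIC2, ZIC4 and ZIC5 are zinc finger transcription factor genes that lie in the human genome as divergent neighbours, ZIC1 beside ZIC4 and ZIC2 beside ZIC5. Their promoters, gene bodies and shared loci were described from deposited ChIP-seq peak lists of 2 lung cancer cell lines. The members were taken by name, and each promoter window reached 1500 bp in both directions from the transcription start of the canonical GENCODE transcript, on the hg38 build. They make up 4 of the 20033 protein-coding genes whose promoters were scored in the same way.

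NCI-H661 is a lung cancer line, deficient in SMARCA4 according to the study, whose own genes express DPPA2 and DPPA4, chromatin proteins otherwise found in early embryos. It was profiled as the untreated parental line. Its 18 libraries covered DPPA2 (replicates 1 and 3), DPPA4 with an antibody to its N terminus (replicates 2 and 3), 6 histone marks with 2 replicates each, and KDM2A and SUZ12 with 1 library each. NCI-H1299, a line of non-small cell lung cancer, carried stably integrated doxycycline-inducible FLAG-DPPA2 and V5-DPPA4, and these transgenes were present in both of its groups. The H1299 cells received water (CTRL) or 2 µg/mL doxycycline (DOX) for 7 days, and 5 histone marks were profiled with 2 replicates per group. Per the study's methods these cells were sorted by fluorescence as a bulk population and not as a single clone, and replicates were run as complete batches. Whether replicates were grown as separate cultures is not stated, so p-values here may measure technical spread. An H3K27ac island at the promoters of DPPA2 and DPPA4 themselves was found in 2 of 2 H661 libraries and in 0 of 2 CTRL and 0 of 2 DOX libraries, for each gene. These windows cover the endogenous genes and say nothing of the integrated vectors.

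ZIC proteins bind DNA through C2H2 zinc fingers related to those of the GLI factors, which act at the end of the Hedgehog pathway. They are known for roles in the neural plate, the neural crest and the cerebellum, and mutations in ZIC2 cause holoprosencephaly, a failure of the forebrain to divide. H3K27ac marks active promoters and enhancers, H2AK119ub is laid down by Polycomb repressive complex 1, H3K4me1 marks enhancers and promoter flanks, and H3K36me3 follows transcription through gene bodies. SUZ12 is a core subunit of Polycomb repressive complex 2, and KDM2A is a histone demethylase whose CXXC domain binds unmethylated CpG.

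ZIC4 (ENSG00000174963.18) runs on the minus strand of chromosome 3 from 147386046 to 147406543 and ZIC1 (ENSG00000152977.10) on the plus strand from 147409365 to 147416719. Their starts lie 2822 bp apart, so their promoter windows share 179 bp and are not independent of each other. ZIC5 (ENSG00000139800.9) runs on the minus strand of chromosome 13 from 99962964 to 99971767 and ZIC2 (ENSG00000043355.12) on the plus strand from 99981784 to 99986765, with 10017 bp between the starts. A noncoding gene, ENSG00000288060, fills much of that interval (99973526 to 99980034, minus strand), and the noncoding ZIC4-AS1 lies within ZIC4 (147386967 to 147387453, plus strand). Over whole promoter windows ZIC2 held 354 CpG dinucleotides, ZIC5 232, ZIC1 211 and ZIC4 94. A CpG island (500 bp with a GC content of 55% or more and CpG at 0.65 or more of the frequency that base composition predicts) was found in the windows of ZIC1, ZIC2 and ZIC5 and not in that of ZIC4, against 72.9% of all promoters.

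The stretches below are shown because DPPA2, DPPA4 and KDM2A were mapped on or beside them and because they differ in CpG content. The capitals mark CG, and no motif longer than CG was searched. The upstream stretches are the 250 bases before the most upstream RefSeq start of each gene (GRCh38.p14), written 5′ to 3′ along the gene. CG counts in them are read against 35116 upstream stretches of the same length in the RefSeq table, which held all 4 members. The stretch upstream of ZIC4 overlaps untranslated exon of other ZIC4 transcripts and is not printed. It held 9 CG, a count that 54.1% of the upstream stretches reached.
ZIC1 upstream, chr3:147409115-147409364, plus strand, 23 CG, reached by 25.8%: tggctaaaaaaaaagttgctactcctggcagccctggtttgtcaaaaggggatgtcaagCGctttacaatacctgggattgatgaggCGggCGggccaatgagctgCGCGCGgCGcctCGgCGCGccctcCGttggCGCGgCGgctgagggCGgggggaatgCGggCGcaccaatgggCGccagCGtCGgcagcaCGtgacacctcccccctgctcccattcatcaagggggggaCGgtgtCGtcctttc
ZIC2 upstream, chr13:99981534-99981783, plus strand, 31 CG, reached by 10.9%: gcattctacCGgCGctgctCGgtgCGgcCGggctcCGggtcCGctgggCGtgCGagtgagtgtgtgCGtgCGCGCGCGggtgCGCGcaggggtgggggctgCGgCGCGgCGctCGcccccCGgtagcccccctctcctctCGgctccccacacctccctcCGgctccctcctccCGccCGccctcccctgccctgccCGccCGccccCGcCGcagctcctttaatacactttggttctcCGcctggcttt
ZIC5 upstream, chr13:99971910-99972159, minus strand, 28 CG, reached by 15.9%: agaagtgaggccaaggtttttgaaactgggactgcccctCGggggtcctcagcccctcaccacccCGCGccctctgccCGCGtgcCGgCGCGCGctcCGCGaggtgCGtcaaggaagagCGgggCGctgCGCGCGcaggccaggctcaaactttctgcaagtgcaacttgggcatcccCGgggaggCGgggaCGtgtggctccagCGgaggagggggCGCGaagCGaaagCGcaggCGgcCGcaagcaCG

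The next stretches are 151 bases centred on the summit of a narrow peak, read from hg38. They were chosen as the strongest DPPA2 peak of replicate 1 at ZIC5, the strongest KDM2A peak at ZIC2, and the strongest DPPA4 peak of replicate 2 over ZIC1/ZIC4. The first lies in coding sequence of ZIC5 exon 1, the second between the genes upstream of ZIC2, and the third in an intron of the canonical ZIC4 transcript. The ZIC5 window held 26 CG, a count that 1.16% of the 69810 DPPA2 replicate 1 summits reached. The ZIC2 window held 19, reached by 39.8% of the 3093 KDM2A summits. The ZIC4 window held 10, reached by 50.6% of the 26349 DPPA4 replicate 2 summits.
ZIC5 DPPA2 summit, chr13:99970775-99970925, minus strand: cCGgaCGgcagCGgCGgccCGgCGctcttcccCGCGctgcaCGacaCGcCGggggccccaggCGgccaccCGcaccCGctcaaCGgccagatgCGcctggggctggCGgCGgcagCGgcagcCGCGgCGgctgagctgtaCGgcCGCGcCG
ZIC2 KDM2A summit, chr13:99980360-99980510, plus strand: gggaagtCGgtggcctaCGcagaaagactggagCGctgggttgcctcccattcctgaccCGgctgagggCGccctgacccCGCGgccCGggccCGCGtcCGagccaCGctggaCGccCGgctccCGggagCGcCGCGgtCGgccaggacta
ZIC4 DPPA4 summit, chr3:147392643-147392793, minus strand: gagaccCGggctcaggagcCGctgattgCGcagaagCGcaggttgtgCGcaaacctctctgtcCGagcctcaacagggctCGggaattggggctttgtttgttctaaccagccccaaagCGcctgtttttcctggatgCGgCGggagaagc

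After filtering (log2 fold over input above 1, false discovery rate below 0.05) the H661 lists held 30041 to 127865 EPIC2 islands with 0.488 to 6.96 M reads, and the H1299 lists 12301 to 103384 islands with 0.138 to 3.66 M reads. These are reads inside called islands, since sequencing depth is not in the lists. A library with no island at a place has no value there, so an empty place means that no island was detected at that library's depth. Of the 59 islands over the ZIC loci in H1299, 20 lay over 0 input reads, so EPIC2 had no measured denominator for their folds. The same held for 6 of 125 in H661. For that reason reads and covered length are given in preference to folds.

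The first comparison asked whether DPPA2 and DPPA4 sit at the ZIC promoters in cells that express them. A consensus peak had to be present in the narrow peaks of all 4 DPPA2 and DPPA4 libraries, with over 25% of each peak shared. Such peaks lay at ZIC2 and ZIC5 and at neither ZIC1 nor ZIC4. This is 2 of 4 members, against 26.3% of all promoters. ZIC5 held the strongest peak of the members in 3 of the 4 libraries, and ZIC2 did in DPPA4 replicate 3. The highest fold over input at ZIC5 was 27 and 15.9 in DPPA2 replicates 1 and 3, and 9.29 and 8.20 in DPPA4 replicates 2 and 3. These folds exceeded those of 99.5%, 99.0%, 95.2% and 93.3% of the peaks in the same lists. All 4 libraries therefore had their ZIC5 peak in the upper part of their own list.

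The ZIC5 consensus peak covered 4151 bp (99968027 to 99972177) and ran from the intron across exon 1 and past the start, with 1641 bp in exons. The DPPA2 summits of replicates 1 and 3 fell at 99970850 and 99970844, 6 bases apart, inside the coding part of exon 1. At ZIC2, the holoprosencephaly gene, the highest folds at the promoter were 14.8 and 11.5 in DPPA2 and 7.25 and 9.93 in DPPA4. One consensus peak covered the ZIC2 start and exon 1 (99980850 to 99983544, 2695 bp), another lay upstream and reached into the window (99978985 to 99980578, 1594 bp), and a further one lay over the later exons (99983747 to 99985779, 2033 bp). The upstream peak covers the start of ENSG00000288060.

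At ZIC1, best known from cerebellar and neural crest development, DPPA2 peaks reached folds of 11.6 and 6.38 and the DPPA4 replicate 3 peak 5.14, while DPPA4 replicate 2 held no kept peak. At the ZIC4 start only DPPA2 replicate 1 held peaks, with a highest fold of 6.95. That library had 69810 kept narrow peaks, against 26349 to 30497 in the other 3, and it held a peak at 62.0% of all promoters against 42.8% to 43.6%. At the ZIC1/ZIC4 locus the only place with a peak in every DPPA2 and DPPA4 library was inside ZIC4, in the region of the ZIC4 stretch shown above. There DPPA2 replicate 3 reached a fold of 4.87, DPPA4 replicate 2 4.65 and DPPA4 replicate 3 6.05. The DPPA2 replicate 1 peak over this place is a long one (147390705 to 147393180) whose fold of 14.1 belongs to a summit elsewhere, at 147390893. The place did not pass the overlap rule for a consensus peak.

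Leaving out any of the 4 libraries in turn gave ZIC2 and ZIC5 each time, and so did windows of 500 bp around the start, where 24.8% of all promoters were called. The calls did change with the overlap rule. Asking for 50% of each peak gave 0 of 4 members, against 11.9% of promoters. Calling on EPIC2 islands in place of narrow peaks gave 4 of 4, against 46.9%. Islands of all 4 libraries cover 78.8% to 93.3% of the ZIC1 window, 18.1% to 78.6% of the ZIC4 window, 100% of the ZIC2 window and 61.1% to 94.4% of the ZIC5 window.

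**Figure D1:**
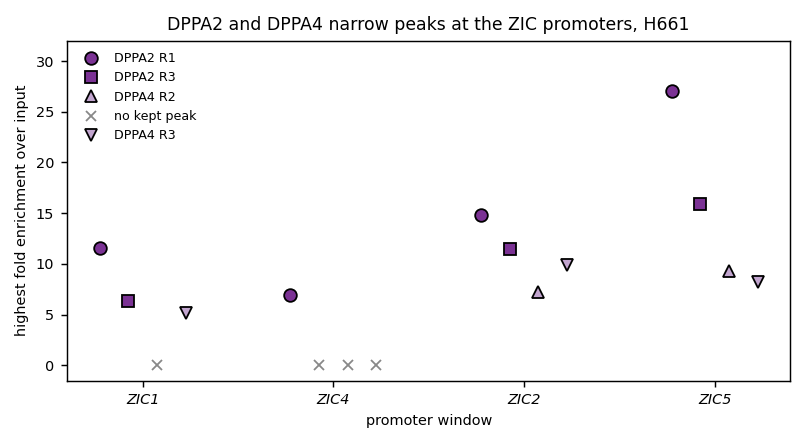
Highest fold over input of a kept narrow peak at each ZIC promoter window (y axis, fold) in the 4 NCI-H661 DPPA2 and DPPA4 libraries, with a grey cross at 0 where the library held no kept peak. ZIC2 and ZIC5 have a peak in all 4 libraries, from 7.25 to 27, ZIC1 in 3 and ZIC4 in 1.

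The single KDM2A library held narrow peaks at ZIC2 and at no other member, 1 of 4, against 10.5% of all promoters. They had folds of 7.31 upstream of the start (99980366 to 99980552) and 6.58 in exon 1 (99982315 to 99982470). KDM2A islands touched the windows of ZIC2 and ZIC5, 2 of 4, against 50.5% of promoters. The ZIC2 islands held 36 reads in 1000 bp and the ZIC5 island 15 reads in 600 bp. No KDM2A island touched the ZIC1 or ZIC4 window, while 42 reads lay in an island inside ZIC4 (147392201 to 147394000).

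SUZ12 gave no narrow peak at any of the 4 promoters, against 15.6% of all promoters. Its EPIC2 islands touched all 4 windows, against 23.4%, but with few reads and low folds there. They held 28 reads in 1 island between ZIC1 and ZIC4 that touched both windows, 25 at ZIC2 and 27 at ZIC5, with log2 folds of 1.18, 1.15 and 1.41, just above the limit of 1. They covered 14.5% of the ZIC1 window, 28.1% of ZIC4, 3.90% of ZIC2 and 43.3% of ZIC5. Further SUZ12 islands lay in the ZIC2 body past the window. These were at 99983501 to 99984500 (26 reads, log2 fold 1.94) and 99984801 to 99986100 (31 reads, log2 fold 1.61). SUZ12 islands covered 46.2% of the ZIC2 body. Both of these factors had 1 library, so these values have no replicate check.

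**Figure D2:**
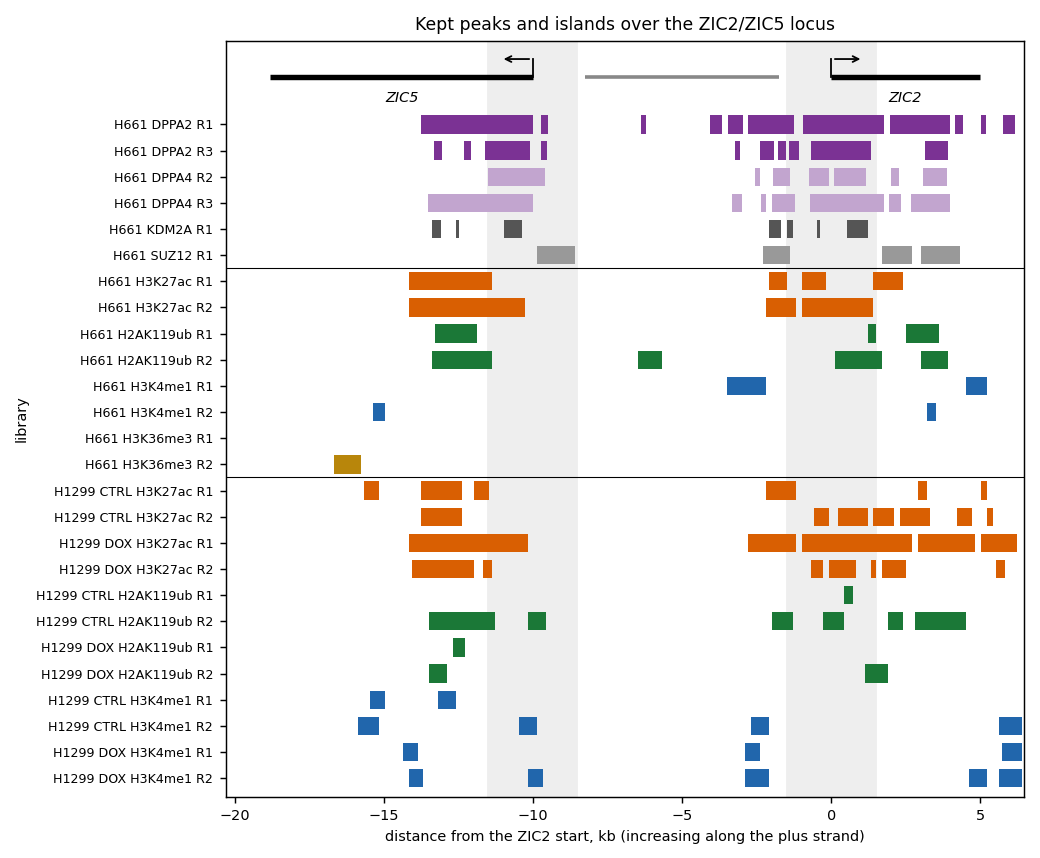
Kept narrow peaks (DPPA2, DPPA4) and EPIC2 islands (all other rows) over the ZIC2/ZIC5 locus, by library, against distance from the ZIC2 start in kb. Black bars are the genes with arrows at their starts, the grey bar is ENSG00000288060, grey bands are the promoter windows. DPPA2 and DPPA4 peaks lie in both promoter windows in H661, H3K27ac of H661 and H1299 lies around the ZIC2 start and mostly in the body of ZIC5, and H2AK119ub is patchy.

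Of the marks profiled in H661, 7 of the 24 pairs of member and mark were called in both replicates, and 4 of these were H3K27ac. H3K27ac was called at all 4 members, against 58.1% of all promoters. Its islands covered 30.0% and 45.5% of the ZIC1 window in replicates 1 and 2, 36.7% and 45.3% of ZIC4, 30.0% and 90.5% of ZIC2, and 4.47% and 41.1% of ZIC5. Replicate 2 was the higher at every member, and it also held more reads in islands than replicate 1 (6.04 M against 2.16 M). At ZIC1 the islands that touched the window did not overlap between the 2 libraries. That of replicate 1 lay before the start (147408301 to 147409200) and that of replicate 2 after it (147409501 to 147412200). Past the window, a further replicate 1 island (147411101 to 147411700, 16 reads) lay inside the replicate 2 island. At ZIC5 most of the acetylation lay in the gene. The island there spanned 99967601 to 99970400 with 95 reads in replicate 1 and reached 99971500 with 318 reads in replicate 2.

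H2AK119ub, the Polycomb mark, was called at ZIC2 only, 1 of 4 members, against 24.3% of promoters. The ZIC2 islands held 15 reads and 67 reads and covered 9.46% and 46.1% of the window. Replicate 2 alone touched the windows of ZIC5 (4.47% covered) and ZIC4 (23.3%), and neither library touched ZIC1. Most of the ZIC5 island of replicate 2 lay in the gene body (99968401 to 99970400, 81 reads), where replicate 1 held an island of 32 reads that ended before the window (99968501 to 99969900). Both lay inside the span of the H3K27ac island. Replicate 2 held 6.65 M reads in islands and replicate 1 1.32 M. ZIC2 was therefore the single member with both H3K27ac and H2AK119ub called, against 12.7% of all promoters. With windows of 500 bp the H2AK119ub call was lost, since the replicate 1 island (99983001 to 99983300) lay past that window.

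H3K36me3 was called at ZIC1 and ZIC4, 2 of 4, against 7.17% of promoters. The ZIC4 island covered 26.7% of its window in both libraries with 24 and 25 reads. At ZIC1 it covered 1.20% and 25.5%, and the first of these is the same island as at ZIC4, in the 179 bp that the windows share. Islands of the 2 libraries did not sit at the same place in either window. Over whole gene bodies, H3K36me3 islands covered 29.9% and 27.2% of ZIC1 and 10.7% and 20.0% of ZIC4, against 0% and 10.2% of ZIC5 and none of ZIC2. The islands inside the bodies of ZIC1 and ZIC4 did recur, near 147395901 to 147397500 in ZIC4 and 147413101 to 147413700 in ZIC1.

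H3K4me1 was called at none of the 4 members, against 29.6% of promoters. Its islands covered 19.5% and 16.6% of the ZIC4 body and none of the ZIC1 body. In both libraries they touched the windows of other ZIC4 coding transcripts, which start at 147403798 and 147404284. H3K36me2 was called at none, against 5.49%, and H3K9me3 at none, against 4.14%. H3K9me3 left the ZIC2/ZIC5 locus without an island in both H661 libraries and gave 1 island of 10 reads over ZIC1/ZIC4 in replicate 1.

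**Figure D3:**
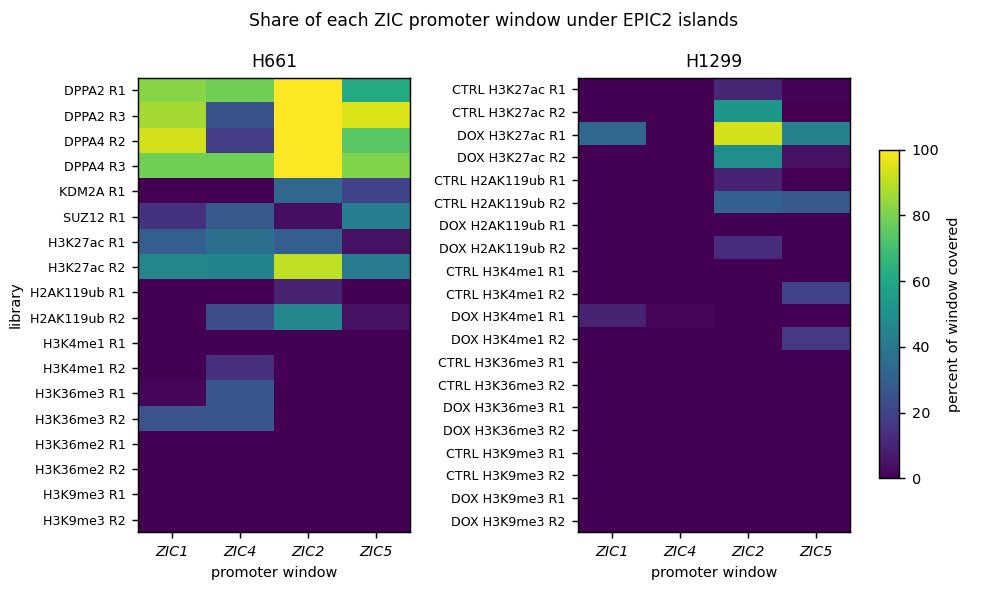
Percent of each ZIC promoter window covered by kept EPIC2 islands (colour, 0 to 100%) in every H661 library (left) and H1299 library (right). Rows are libraries, columns are genes. DPPA2 and DPPA4 islands cover 100% of the ZIC2 window, and the ZIC1 and ZIC4 columns are empty in all H1299 CTRL libraries.

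The second comparison set H661 beside H1299 CTRL, the line that does not express DPPA2 and DPPA4 from its own genes. H3K27ac was higher in H661 over ZIC1/ZIC4 on both scales used, while the order over ZIC2/ZIC5 depended on the scale. Over the 33.7 kb ZIC1/ZIC4 locus, H3K27ac islands held 271 and 829 reads in H661 and 12 and 6 reads in H1299 CTRL. Scaled to reads per 1 M reads in islands of the same library, this was 125 and 137 in H661 against 15.5 and 7.90 in CTRL, and the groups did not overlap. Over the 26.8 kb ZIC2/ZIC5 locus islands held 160 and 548 reads in H661 against 117 in CTRL replicate 1, and the count of CTRL replicate 2 also lay below both H661 libraries. The scaled values were 74.0 and 90.7 in H661 and 151 and 194 in CTRL, higher in CTRL, so the direction turned with the scaling. That order was common on this scale. In the region fit scaled by these totals alone (3005 regions), the median H3K27ac log2 difference was -1.34. Of the 2709 regions called in it, 2707 were lower in H661. With 2 libraries against 2 the smallest two-sided p of an exact permutation test is 0.333, so that test cannot pass for a locus sum, and no other test was run on these sums. The H661 libraries held more reads in islands (2.16 M and 6.04 M) than those of CTRL (0.775 M and 0.760 M), and the part of this depth in the differences was not tested.

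At promoters, 4 of the 20 pairs of member and mark were called in both H661 libraries and neither CTRL library, against 7.48% of all pairs of promoter and mark. These were H3K27ac at ZIC1 and ZIC4, 2 of 4 members against 12.1% of promoters, and H3K36me3 at the same 2 genes, against 2.92%. No pair was called the other way round, against 2.99%. Since the ZIC1 and ZIC4 windows overlap, the 2 genes are not separate observations. The H3K27ac pairs also depended on the canonical starts. With the starts of all protein-coding transcripts, 3 pairs were called in H661 alone, and no share over all promoters is given for that count. They were H3K36me3 at ZIC1 and ZIC4 and H3K4me1 at ZIC4. H3K27ac dropped out because 1 of 2 CTRL libraries held an island at other starts, such as 147393895 for ZIC1 and 147404284 for ZIC4.

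In H1299 CTRL 2 of the 20 pairs were called, both at ZIC2. H3K27ac was called at ZIC2 alone, 1 of 4 members against 38.3% of promoters, with 19 and 66 reads covering 10.6% and 52.8% of the window. H2AK119ub was also called at ZIC2 alone, against 8.80%, with 10 and 34 reads. The islands of the 2 libraries did not overlap each other for either mark. H3K4me1 was called at no member, against 37.1%, H3K36me3 at none, against 7.37%, and H3K9me3 at none, against 0.190%. CTRL H3K9me3 replicate 2 held 3 islands with 36 reads over ZIC1/ZIC4, a locus where replicate 1 and both DOX libraries held none.

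Inside ZIC5, an H3K27ac island at 99968001 to 99969400 was present at the same coordinates in both CTRL libraries, with 54 and 41 reads. It lay in the ZIC5 intron, within the span of the H661 island. A region joined over the 4 libraries there (99967601 to 99971500) held 71 and 41 reads in CTRL and 95 and 318 in H661. After TMM scaling its log2 difference was 0.37 (SE 0.34, edgeR quasi-likelihood test, adjusted p = 0.463), which did not pass. TMM is not the scale of reads per 1 M used above, and the sign can differ between them. The median region of this fit differed by 0.01. This fit used every region with an island in each library, since no ZIC region met the coverage minimum of 50% in every library. Called regions made up 23.0% of the 8408 tested. The H2AK119ub region at ZIC2 (99981501 to 99983500) held 10 and 12 reads in CTRL and 15 and 67 in H661. Its log2 difference on the TMM scale was -0.09 (SE 0.60, edgeR adjusted p = 0.941), where 14.9% of 1923 regions were called.

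**Figure D4:**
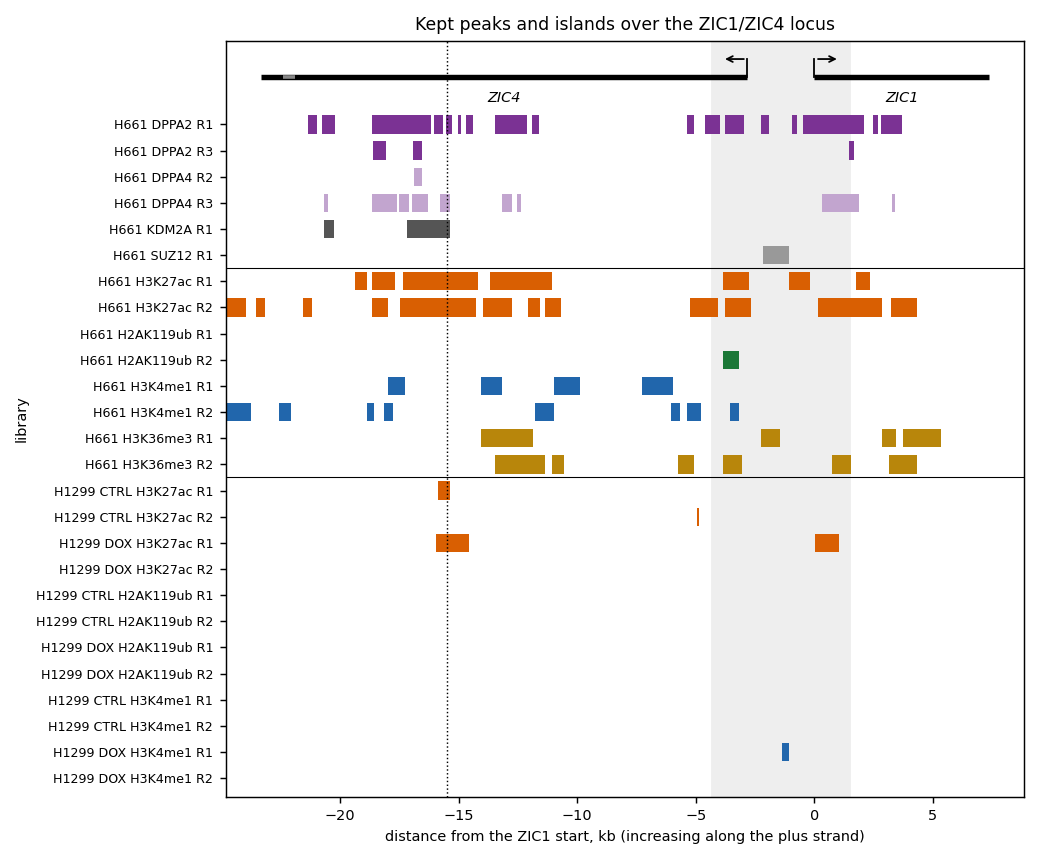
Kept narrow peaks and EPIC2 islands over the ZIC1/ZIC4 locus by library, against distance from the ZIC1 start in kb, drawn as for ZIC2/ZIC5. The dotted line is the start of a ZIC1 coding transcript that begins inside ZIC4. The largest H3K27ac islands of H661 cover that line, and H1299 rows are nearly empty.

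The strongest H3K27ac island of the ZIC1/ZIC4 locus was not at either canonical start. It lay inside ZIC4, at 147392001 to 147395200 with 130 reads in H661 replicate 1 and at 147391901 to 147395100 with 371 reads in replicate 2. This is 40.6 and 116 reads per kb, against 22.2 and 50.4 at the ZIC1 start and 19.1 and 40.9 at the ZIC4 start. GENCODE places the start of a plus-strand protein-coding ZIC1 transcript within it, at 147393895. DPPA2 replicate 1 and DPPA4 replicate 3 held narrow peaks across that start (147393821 to 147394070, fold 7.38, and 147393596 to 147393995, fold 5.58). In H1299 the same start lay in an H3K27ac island of CTRL replicate 1 (12 reads, 500 bp) and of DOX replicate 1 (44 reads, 1400 bp), and replicate 2 of neither group held one.

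The third comparison asked what changed at these genes when H1299 cells were induced to express DPPA2 and DPPA4. No pair of member and mark was called in both DOX and neither CTRL library, against 2.66% of all pairs, or in both CTRL and neither DOX library, against 0.823%. H3K27ac was called at ZIC2 and ZIC5 in DOX, 2 of 4 members against 51.3% of promoters. H2AK119ub was called at none, against 11.6%, H3K4me1 at none, against 43.9%, H3K36me3 at none, against 9.52%, and H3K9me3 at none, against 0.165%.

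The H3K27ac values turned on DOX replicate 1. Islands that touched the ZIC2 window held 19 and 66 reads in CTRL and 241 and 38 in DOX, counted over their whole length. Counted likewise, those at the ZIC5 window held 17 and 0 in CTRL and 235 and 8 in DOX. The 235 reads lay in a 4000 bp island that covered 44.5% of the ZIC5 window. The CTRL islands of 54 and 41 reads inside ZIC5 did not touch the window and are left out of these counts. At ZIC1 DOX replicate 1 held an island of 34 reads and the other 3 libraries none, and at ZIC4 no library held one. At ZIC2, ZIC5 and ZIC1 replicate 1 of DOX stood above the other 3 libraries. That library also had the most reads in islands, 2.78 M against 0.979 M in DOX replicate 2 and 0.775 M and 0.760 M in CTRL. Scaled to those totals, the ZIC2/ZIC5 locus held 151 and 194 reads per 1 M in CTRL and 216 and 139 in DOX, so the groups overlapped.

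H3K27ac regions at the locus did not pass a test of DOX against CTRL. None met the coverage minimum, and 3 were tested where every library had an island. The ZIC5 region (99967601 to 99971600) held 71 and 41 reads in CTRL and 235 and 65 in DOX, a log2 change of 0.30 (SE 0.31, edgeR adjusted p = 0.938). The ZIC2 region (99980801 to 99986600) held 9 and 98 against 241 and 62, a log2 change of 0.83 (SE 0.70, adjusted p = 0.906). Islands covered 300 and 3700 bp of it in CTRL and 5600 and 2300 bp in DOX. Reads outside islands were not counted. The region beyond the ZIC2 3′ end (99986801 to 99988000) held 8 and 8 against 48 and 9, a change of 0.57 (SE 0.50, adjusted p = 0.911). Of 10307 regions in that fit 0.116% were called, so few regions anywhere passed. With an SE of 0.70, a change at ZIC2 of the size seen was not detectable with these libraries.

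H2AK119ub over ZIC2/ZIC5 varied more between the CTRL replicates than between the groups. It held 10 and 151 reads in CTRL, 33.0 and 264 per 1 M, and 10 and 32 reads in DOX, 21.9 and 71.1 per 1 M, so the groups overlapped. The 6 islands of CTRL replicate 2 include 2 at the ZIC5 window and 2 at the ZIC2 window. Those in DOX were 1 in replicate 1 and 2 in replicate 2. Over ZIC1/ZIC4 neither group held an H2AK119ub island in any library.

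**Figure D5:**
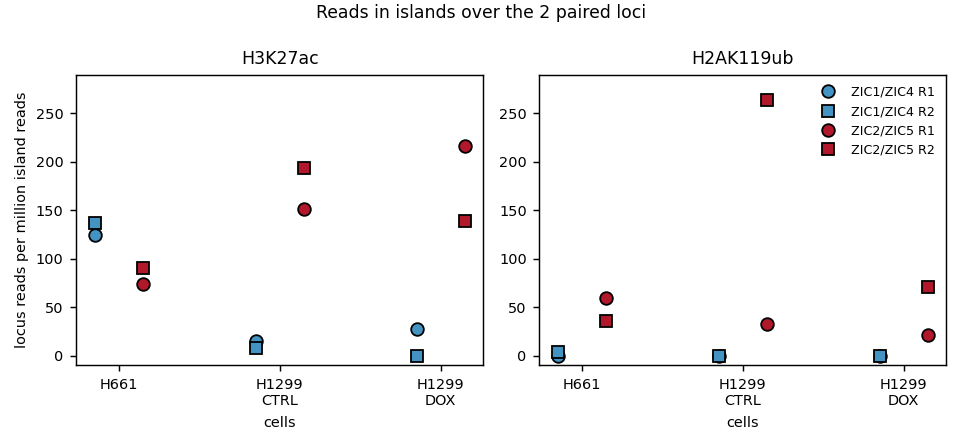
Reads in H3K27ac (left) and H2AK119ub (right) islands over each paired ZIC locus, per 1 M reads in islands of the same library (y axis), for each replicate (circle, replicate 1, square, replicate 2) in H661, H1299 CTRL and H1299 DOX. The H3K27ac points of ZIC1/ZIC4 lie at 125 and 137 in H661 and at 28.1 or below in H1299, while those of ZIC2/ZIC5 lie between 74.0 and 216 in all groups.

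The remaining marks were sparse. H3K4me1 over ZIC2/ZIC5 held 21 and 61 reads in CTRL and 38 and 68 in DOX, scaled to 18.7 and 36.2 against 22.4 and 38.6 per 1 M, and over ZIC1/ZIC4 it held 10 reads in DOX replicate 1 alone. H3K36me3 islands appeared in DOX replicate 1 only, with 29 reads in the ZIC5 body and 10 in the ZIC1 body. Neither mark separated the groups.

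The promoters most like each ZIC gene were found from the percent of the window covered in all 38 libraries, as a description. These libraries differ in target and in reads in islands, and replicates share a target. No r of typical promoter pairs is given to read these values against. For ZIC2 they were TRAPPC6A, FCHSD2 and RAP2B (Pearson r of 0.96 each), and for ZIC5 SH3BP5 and MCCC1 (0.97 each) and FNIP2 (0.96). For ZIC1 they were EPCAM, CILP2 and TMTC4 (0.96 each), and for ZIC4 TMEM47 (0.88), TRAF3IP2 (0.86) and SYNPO2 (0.85). Between members r was 0.90 for ZIC1 and ZIC5, 0.85 for ZIC1 and ZIC2, and 0.84 for ZIC2 and ZIC5. ZIC4 was the least like the others, at 0.75 with ZIC1, 0.64 with ZIC5 and 0.63 with ZIC2.

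Related gene groups were counted beside the ZIC genes, against the same shares of all promoters. These were 26.3% for a consensus peak, 58.1% for H3K27ac, 24.3% for H2AK119ub and 15.6% for a SUZ12 narrow peak. Of 6 GLI and GLIS relatives, 4 had a DPPA2/4 consensus peak in H661 (among them GLI2, GLI3 and GLIS1), 3 had H3K27ac in both libraries (GLI1, GLI3 and GLIS2) and 5 had H2AK119ub. Of 12 neural plate border and neural crest genes, 4 were bound (TFAP2A, FOXD3, SOX10 and GBX2), 3 had H3K27ac (PAX3, FOXD3 and GBX2), 10 had H2AK119ub and 9 had a SUZ12 narrow peak, among them PAX7, MSX1 and MSX2. The ZIC genes had H3K27ac at 4 of 4 and a SUZ12 narrow peak at 0 of 4. SUZ12 EPIC2 islands of low fold did touch all 4 ZIC windows, against 23.4% of promoters. The lists are short, and the difference between them was not tested.

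Of 13 holoprosencephaly genes other than ZIC2, 7 were bound (among them TGIF1, GLI2 and PTCH1), against 26.3% of all promoters. H3K27ac was called at 5 (among them SIX3 and TGIF1), against 58.1%. H2AK119ub was called at 6 (among them SHH, the Hedgehog ligand, and SIX3), against 24.3%. SIX3 and PTCH1, 2 of the 13, had both H3K27ac and H2AK119ub called, as ZIC2 did, against 12.7% of all promoters. Of 15 Hedgehog pathway genes, 7 were bound, among them the ligand DHH, the receptor PTCH1 and the transducer SMO. In that list 8 had H3K27ac and 9 had H2AK119ub. The shares of all promoters are those given for the holoprosencephaly genes. With DOX, H3K27ac was called in both DOX and neither CTRL library at MSX2 among the neural crest genes and FOXH1 among the holoprosencephaly genes, and at none of the GLI and GLIS or Hedgehog genes, where the share over all promoters was 5.03%.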

How the data were processed

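ChIP-seq libraries of NCI-H661 and NCI-H1299 were analysed from 44 deposited lists, 38 of EPIC2 islands and 6 of MACS2 narrow peaks. Per the study's processing notes, reads were trimmed with Trim Galore 0.6.6, aligned to hg38 (GRCh38.p13) with BWA 0.7.13 and handled with SAMtools 1.9, Picard 2.6.0 and deepTools 3.5.0, and peaks were called per replicate against input with MACS2 or EPIC2. The deposited EPIC2 lists give the authors' ChIP and input read counts, p-value and FDR, a log2 fold over input and a score. The deposited narrow peak lists give a score, the authors' fold ratio and −log10 p and q values. The histone ChIP was single cross-linked and the factor ChIP double cross-linked. A mouse spike-in cannot be applied to peak lists, and the authors' blacklist was not used here.

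Kept intervals lay on standard chromosomes at log2 fold above 1 and FDR below 0.05. A mark was called where an island of both replicates touched the window. For tests, islands of 4 libraries were joined into regions, each library's count being the sum of its deposited ChIP counts there. Regions covered to at least 50% in every library were fitted with edgeR 4.0.16 (quasi-likelihood test, TMM, library size as the reads in kept islands, R 4.3.3). For DOX against CTRL the replicate number was a block, taken in place of the batch. The study fitted batch and treatment, without saying that a replicate number names a batch. A region was called if its Benjamini-Hochberg adjusted p was below 0.05 and it moved by 0.5 or more on the log2 scale. In a test on simulated data, the H3K27ac fit of DOX against CTRL (3436 regions) recovered 60.0% of changes of 1 and 88.0% of changes of 1.5 on the log2 scale. The simulation gave every region the same dispersion and held no ZIC region, so these rates do not apply to the ZIC regions. No ZIC region met the coverage minimum, so their values come from the alternative without it. Other alternatives were DESeq2 1.42.0 (with a mean dispersion fit where its default fit failed), other scalings, windows, fold limits and overlaps, and leaving out each library.

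Named genes were the members, the noncoding genes in their loci, the 3 most alike promoters per member, and the first members called in 4 gene lists. The members and lists were chosen with earlier results of these data known. A further gene of the family and a gene of the lists are not reported individually here. Annotation was GENCODE release 44, and sequences came from hg38 and RefSeq.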

Additional observations from a re-analysis of the deposited data

How the results depend on the processing

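Calls at 4 genes rest on whether 1 or 2 islands touch a window, so small counts move easily, and a library with no island gives no value. With a window of 500 bp, mark calls at the ZIC promoters fell from 7 to 3 in H661, from 2 to 1 in H1299 CTRL and from 2 to 1 in DOX. The 3 that stayed in H661 were H3K27ac at ZIC1, ZIC4 and ZIC2. Calls that differed between H661 and CTRL fell from 4 to 2, and those that differed between DOX and CTRL rose from 0 to 1. With a log2 fold above 2, CTRL calls fell to 0 and 1 call differed between DOX and CTRL. With the starts of all protein-coding transcripts, H661 calls rose to 8 and calls that differed between H661 and CTRL fell to 3. Consensus peaks were found at 2 ZIC promoters, at 0 with 50% of each peak and at 4 with EPIC2 islands. Leaving out a replicate gave 7 to 10 mark calls in H661, 3 to 4 in CTRL, 4 to 5 in DOX, 4 to 6 calls that differed between the lines, 0 to 4 between DOX and CTRL, and 2 consensus genes each time. The 4 came without DOX replicate 2, which leaves DOX replicate 1 alone. Without DOX replicate 1 the count was 0, and without CTRL replicate 1 it was 2.

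Regions were counted over the whole table, and no ZIC region entered the fits with the coverage minimum. For DOX against CTRL, edgeR called 0 of 3436 H3K27ac regions, with 186 at an unadjusted p under 0.05, and DESeq2 called 0, with 11. It called 0 of 132 H2AK119ub regions (6 unadjusted, DESeq2 0) and 0 of 68 H3K9me3 regions (5 unadjusted, DESeq2 0), 6 of 7095 H3K4me1 regions and 15 of 7146 H3K36me3 regions, where DESeq2 called 0 of both. Without the replicate block H3K4me1 gave 0 and H3K36me3 5, and the other marks stayed at 0. The correlation of same-numbered libraries was 0.26 for H3K27ac and 0.04 to 0.08 elsewhere, and the study describes complete batches without saying that a number names one. With library sizes only, H3K27ac gave 8, all lower in DOX, H3K4me1 gave 1, and H3K36me3 gave 30, of which 29 were lower, against 3 of 15 before. With no coverage minimum, H3K27ac gave 12, H3K4me1 12, H3K36me3 178 and H3K9me3 1. With covered length as an offset, H2AK119ub gave 1, H3K4me1 0 and H3K36me3 1. Fits that left out a library, here and for H661 against CTRL, joined regions anew over the others and had no replicate block. Their counts therefore do not show the effect of the library alone. Leaving out a library gave 0 to 29 for H3K27ac (29 without DOX replicate 2), 0 for H2AK119ub, 0 to 19 for H3K4me1, 0 to 59 for H3K36me3 and 0 to 2 for H3K9me3.

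For H661 against CTRL, edgeR called 646 H3K27ac regions, 5 with H2AK119ub, 181 with H3K4me1, 197 with H3K36me3 and 0 of 30 with H3K9me3 (2 unadjusted, DESeq2 0). DESeq2 gave 369 for H3K27ac and 81 for H3K4me1. In the same order of marks, library sizes only gave 2709, 71, 679, 24 and 26, of which 2707, 71, 676, 21 and 26 were lower in H661, and moved the median log2 difference of H3K27ac to -1.34. Leaving out the coverage minimum gave 1934, 286, 1786, 1602 and 80. With covered length as an offset, 20.1% of 468 H3K27ac calls were higher in H661, against 46.1% before, and H2AK119ub gave 1, H3K4me1 51 and H3K36me3 5. Leaving out a library gave 713 to 1389, 0 to 21, 28 to 412, 34 to 1304 and 0 to 6. The cause of these moves was not tested.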
